A study of Homo sapiens with 26 samples.

Results

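The loci of 10 genes that mark the myeloid lineage were examined for how strongly the methyltransferase Dam marked them in single cells. They were found by position: every 100 kb bin (build hg19) that overlaps CSF3R, CSF1R, CD14, ITGAM, CD33, MPO, PRTN3, ELANE, CTSG or LYZ was taken. PRTN3 and ELANE lie in the same bin and ITGAM spans 2, so the 10 genes form 9 loci of 10 bins, out of 26331 bins with a usable value in the whole series. The samples are 26 single cells of KBM7, a human leukaemia line with a nearly haploid genome, all from clone 5-8 and labelled haploid (1N). All express unfused Dam (DamOnly), stabilised with 0.5 nM Shield1 for 15 h before cells were sorted. The sorted cells were among the 2% smallest and positive for both Fucci markers, which report the cell cycle phase. Lamin B1 appears in the series title, whereas each sample is labelled as Dam alone, which was taken as given. Of 124 cells in the design text, these 26 were analysed here. There is 1 group, 1 clone and no second condition, so loci were compared with other parts of the genome inside each cell, and no p-value was computed over cells.

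Dam methylates adenine in the sequence GATC wherever it can reach the DNA, so unfused Dam reads how open the chromatin is. Myeloid cells are the granulocytes, monocytes and macrophages of innate immunity. Their growth factor receptors relay signals for survival and maturation, their surface receptors recognise microbes and other cells, and their granules store enzymes that kill what has been engulfed. Genes for granule enzymes are known for being transcribed mainly in immature myeloid cells, several receptor genes in more mature ones. Transcription was not measured in these cells.

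The letters that Dam acts on can be seen in the stretch before a gene's start. The 250 bases before the start are shown for the locus that turned out highest (CD33), for the one that turned out lowest (CTSG) and for CD14, with GATC in capitals. They come from RefSeq (GRCh38.p14, a different build from the bins): CD33 from chr19:51224830-51225079 (plus strand), CD14 from chr5:140633176-140633425 (minus strand) and CTSG from chr14:24576251-24576500 (minus strand).
CD33: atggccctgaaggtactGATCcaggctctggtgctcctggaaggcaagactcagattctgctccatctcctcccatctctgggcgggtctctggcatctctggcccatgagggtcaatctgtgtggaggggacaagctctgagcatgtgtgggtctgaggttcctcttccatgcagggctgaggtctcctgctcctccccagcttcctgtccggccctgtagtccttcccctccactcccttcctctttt
CD14: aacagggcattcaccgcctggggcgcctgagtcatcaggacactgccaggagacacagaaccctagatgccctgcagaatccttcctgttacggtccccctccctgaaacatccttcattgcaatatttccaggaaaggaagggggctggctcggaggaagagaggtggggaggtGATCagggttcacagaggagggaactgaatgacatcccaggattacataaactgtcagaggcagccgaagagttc
CTSG: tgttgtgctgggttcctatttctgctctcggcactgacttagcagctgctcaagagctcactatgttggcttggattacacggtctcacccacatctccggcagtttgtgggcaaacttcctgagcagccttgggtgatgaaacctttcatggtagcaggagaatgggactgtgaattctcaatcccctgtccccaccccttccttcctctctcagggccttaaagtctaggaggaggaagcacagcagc
CD33 and CD14 have 1 GATC each in this window and CTSG has 0. GATC reads the same on both strands. Of 9 such stretches for 7 of the genes (CSF3R and CSF1R have more than 1 start), 4 hold it, which is 44.4%, against 35.8% of all 35116 stretches in the table. MPO, ELANE and LYZ were not in that table. A bin of 100 kb is far larger than these windows, so the values below do not resolve a promoter, and the absence of GATC in 1 window says nothing about the rest of the bin.

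Values were deposited as observed over expected signal, and a level here is that ratio divided by the cell's mean over all used bins, so that 1 is the average bin of that cell. The level of a locus with 2 bins is their mean. Whole counts behind the ratios came to between 20182 and 178941 per cell (median 42448.5), and a locus bin held 45 to 190 counts over all 26 cells together for the loci of 1 bin. A locus in 1 cell therefore rests on a handful of counts. A locus was called above the cell average where at least 21 of the 26 cells (80%) had a level of 1 or more, and below where at most 5 (20%) did. Among all used bins, 6.09% were called above and 31.4% below, and the median bin had a mean level of 0.793.

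The receptor loci came first. CD33 encodes an inhibitory receptor that binds sialic acid and is used as a surface marker of myeloid leukaemia. Its bin, chromosome 19 from 51700001 to 51800000, ran from 0.690 in the lowest cell through a median of 2.74 to 8.03 in the highest. No cell was at 0 and 23 of 26 were at 1 or more, so it was the only 1 of the 9 loci called above. Its mean level was 3.02 ± 1.79 (SD, n = 26), higher than 98.3% of used bins. On its own chromosome, where the rest averaged 1.65 ± 0.469, it was higher than 92.3% of bins. Without the 6 cells of lowest coverage the mean level of CD33 was 2.58 ± 1.53 (n = 20), still the highest, with CSF3R next at 2.00 ± 1.16. RefSeq places CD33 next to SIGLEC7 and SIGLEC9, which are related receptors.

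CSF1R, the receptor tyrosine kinase for macrophage colony-stimulating factor, lies in the bin from 149400001 to 149500000 on chromosome 5. Its levels ran from 0 through a median of 1.77 to 10.1, with a mean of 2.36 ± 2.50. Cells 10 and 26 were both near 10.1 while 3 cells were at 0, and 19 of 26 were at 1 or more. These 5 cells are all among the 6 of lowest coverage. In the other 20 cells CSF1R ran from 0.497 to 3.37, with a mean of 1.97 ± 0.906. CD14, the co-receptor for bacterial lipopolysaccharide, is on the same chromosome from 140000001 to 140100000. It ran from 0 through 1.64 to 4.64 with a mean of 1.82 ± 1.30, and 18 cells were at 1 or more. Chromosome 5 as a whole was low, at 0.893 on average outside either bin. CSF1R exceeded that average in 21 of 26 cells and CD14 in 20.

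CSF3R, the receptor for granulocyte colony-stimulating factor, lies on chromosome 1 from 36900001 to 37000000. Its level was 0 in the lowest cells, 1.69 in the median cell and 5.15 in the highest, with a mean of 1.69 ± 1.28. It was at 1 or more in 19 cells and at 0 in 5. ITGAM, the alpha chain of the integrin Mac-1 with which myeloid cells adhere and engulf, covers bins on chromosome 16 from 31200001 to 31400000. Over both bins it ran from 0 through 1.62 to 4.00 with a mean of 1.83 ± 1.07, and 19 cells were at 1 or more. Neither locus was called; among neighbouring pairs of bins, the comparison for ITGAM, 10.4% were called above and 36.9% below.

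The 2 bins of ITGAM differed from each other. The gene lies on the plus strand, so its start is in the first bin, whose mean level was 2.58 ± 1.69 with 22 cells at 1 or more. The second bin, which holds the rest of ITGAM and lies towards ITGAX, was at 1.08 ± 1.11 with 11 cells at 1 or more. The first bin was the higher 1 in 19 cells, the lower in 6 and equal in 1. Per unit of expectation it held 2.32 times the counts of the second, with an exact 95% interval from 1.65 to 3.30. Intervals here and below cover counting error alone, and PCR copies of a fragment were not told apart.

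The loci of secreted and granule enzymes had lower mean levels. PRTN3 and ELANE encode proteinase 3 and neutrophil elastase, serine proteases of the primary granules. They lie beside AZU1 and CFD on chromosome 19, in the bin from 800001 to 900000. That bin ran from 0 through 1.07 to 6.41, with a mean of 1.57 ± 1.75. It was at 1 or more in 13 cells and at 0 in 7. On chromosome 19 this level was ordinary, higher than 52.0% of bins, and above the rest of the chromosome in 9 cells.

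LYZ, lysozyme, which cleaves bacterial cell walls, lies on chromosome 12 from 69700001 to 69800000 next to YEATS4. Its bin ran from 0 through 1.55 to 5.74 with a mean of 1.51 ± 1.30, and 16 cells were at 1 or more. MPO, myeloperoxidase, which makes hypochlorous acid in the granule, lies on chromosome 17 from 56300001 to 56400000. Its bin ran from 0 through 1.03 to 5.02, with a mean of 1.32 ± 1.17 and 14 cells at 1 or more. CTSG, cathepsin G, another granule serine protease, lies on chromosome 14 from 25000001 to 25100000 beside GZMH. It was the lowest of the 9 loci, from 0 through 0.762 to 3.41, with a mean of 0.951 ± 0.923. It was at 1 or more in 11 cells and at 0 in 8.

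In order of mean level the loci were CD33, CSF1R, ITGAM, CD14, CSF3R, PRTN3 with ELANE, LYZ, MPO and CTSG. Each differed from the next by less than 1 SD between cells. That SD is the spread of single cells and not the error of a mean, so it cannot settle the order of neighbours, which was not tested. The 5 receptor loci had mean levels from 1.69 to 3.02 and the 4 effector loci from 0.951 to 1.57. Averaged per cell, receptors stood at 2.14 ± 0.770 and effectors at 1.34 ± 0.716 (SD, n = 26). Receptors were the higher in 22 of 26 cells, by 0.806 ± 0.927. Their flanks were also higher, in 20 cells, at 1.54 ± 0.324 against 1.46 ± 0.436. Both flank values include weak bins. Among the effector flanks 1 bin near PRTN3 with ELANE was at 7.15 ± 25.4 from 2 counts. Among the receptor flanks 2 bins near ITGAM held 1 count each. The part of the surroundings in the difference between receptors and effectors was not tested. Roles were compared after the values were seen. The number of cells with receptors higher fell from 22 to 18 of 26 without CD33, and to 18 with every cell thinned to 20000 counts. Among 27 other myeloid loci described below, receptors and effectors had like medians, 1.78 over 13 loci and 1.81 over 8, so the order of the 9 loci was not seen there.

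**Figure D1:**
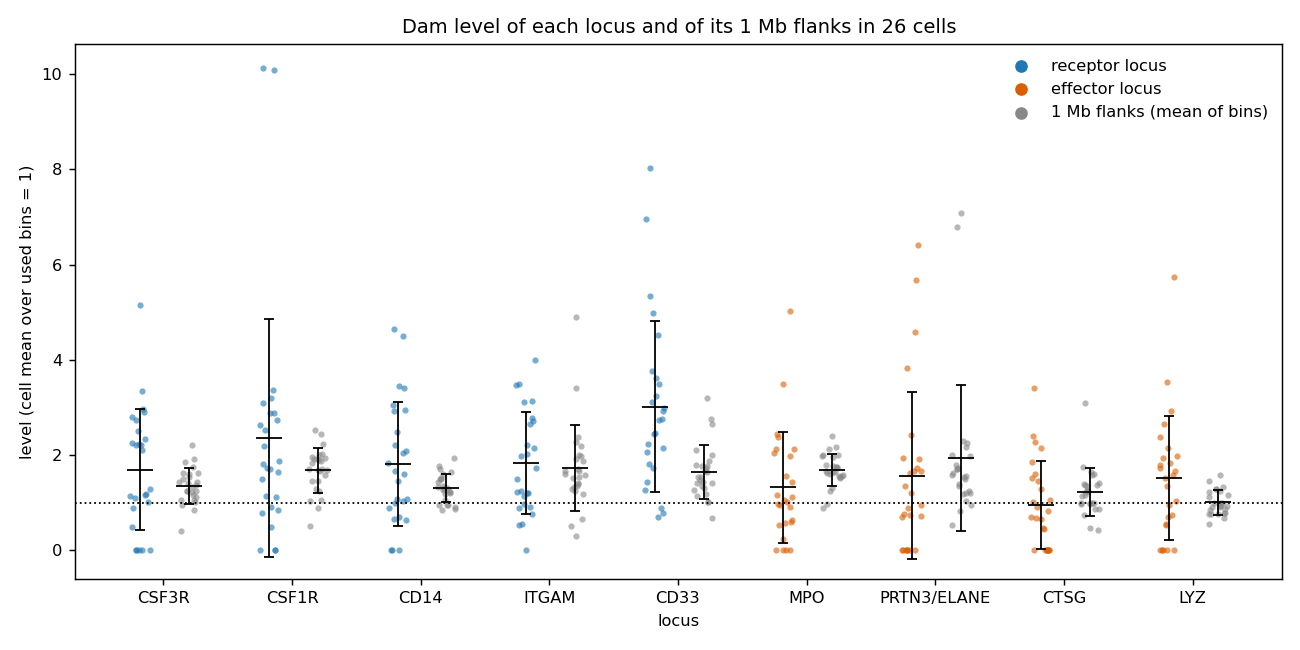
Level of each locus (coloured points) and mean level of its 1 Mb flanks (grey points) in each of 26 cells, on an axis where the cell's mean bin is 1 (dotted line); bars give the mean and SD over cells. CD33 has no cell at 0 and the highest mean, 3.02, while cells at 0 appear at all the other loci.

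The next comparison set each locus against the used bins within 1 Mb on either side in the same cell. A locus was called higher or lower than its flanks where at least 21 cells lay on that side, which held for 2.80% and 16.6% of 26235 single bins. CD33 was the 1 locus called, higher than its flanks in 22 of 26 cells, with the flanks at 1.64 ± 0.561. Against flanks of 2 Mb, and with cells thinned to 20000 counts, it was higher in 19 cells, which is short of the rule. Against the higher-coordinate side of its flanks alone CD33 was also higher in 19, and there ITGAM was the locus called, in 21 (20, and not called, without flank bins of low expectation). The other loci were higher in between 7 cells (CTSG) and 17 (LYZ). CSF1R was higher in 13 and lower in 13, and ITGAM higher in 14 and lower in 12, where pairs of bins were called higher in 5.44% and lower in 16.1%. MPO was lower in 18 cells, PRTN3 with ELANE in 17 and CTSG in 19. The median single bin was higher than its flanks in 9 cells, with quartiles of 7 and 13. MPO (8 cells higher), PRTN3 with ELANE (9) and CTSG (7) lay within these quartiles, and CSF1R (13) at the upper one. By this measure these 3 loci were thus like ordinary bins. Directions at these 3 loci also depended on how the flanks were summarised. Against the median flank bin in place of the mean, the mean difference of PRTN3 with ELANE turned from -0.362 to 0.383 (higher in 14 cells). That of CTSG turned from -0.274 to 0.252 (higher in 13), and that of MPO went from -0.363 to -0.00635 (higher in 11). No locus was higher in fewer cells against the median than against the mean. All bins were not computed with the median, so these changes cannot be set against those of ordinary bins. Counts of 14 and 13 of 26 cells are an even or nearly even split, not a reversed direction.

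Sums over cells gave the size of these differences. Per unit of expectation CD33 held 1.64 times the counts of its flanks (159 counts, exact 95% interval 1.39 to 1.93). CSF3R held 1.44 times (120 counts, 1.19 to 1.74), LYZ 1.42 times (68 counts, 1.10 to 1.82), CD14 1.41 times (116 counts, 1.16 to 1.70) and CSF1R 1.33 times (190 counts, 1.14 to 1.54). For these 5 loci the interval stayed above 1 when any 1 cell was left out. The intervals do not include spread between cells beyond counting noise, which is given below and was largest at CSF1R. There cells 10 and 26 were both near 10.1, and 13 of 26 cells were higher than the flanks. Intervals above 1 were found for 19.6% of single bins and intervals below 1 for 27.9%. For pairs of bins these shares were 24.0% and 33.8%. MPO had the reverse, 0.786 times its flanks (94 counts, 0.632 to 0.967). Its upper bound passed 1 in 3 of the 26 cases of leaving out 1 cell, reaching 1.03. Intervals included 1 for ITGAM at 1.04 (0.881 to 1.22), PRTN3 with ELANE at 0.974 (0.760 to 1.23) and CTSG at 0.823 (0.597 to 1.11). With flanks of 0.5 Mb, the interval of CSF1R included 1, at 1.14 (0.974 to 1.33). Those of ITGAM, at 1.25 (1.06 to 1.48), and CTSG, at 0.669 (0.484 to 0.903), then excluded it.

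**Figure D2:**
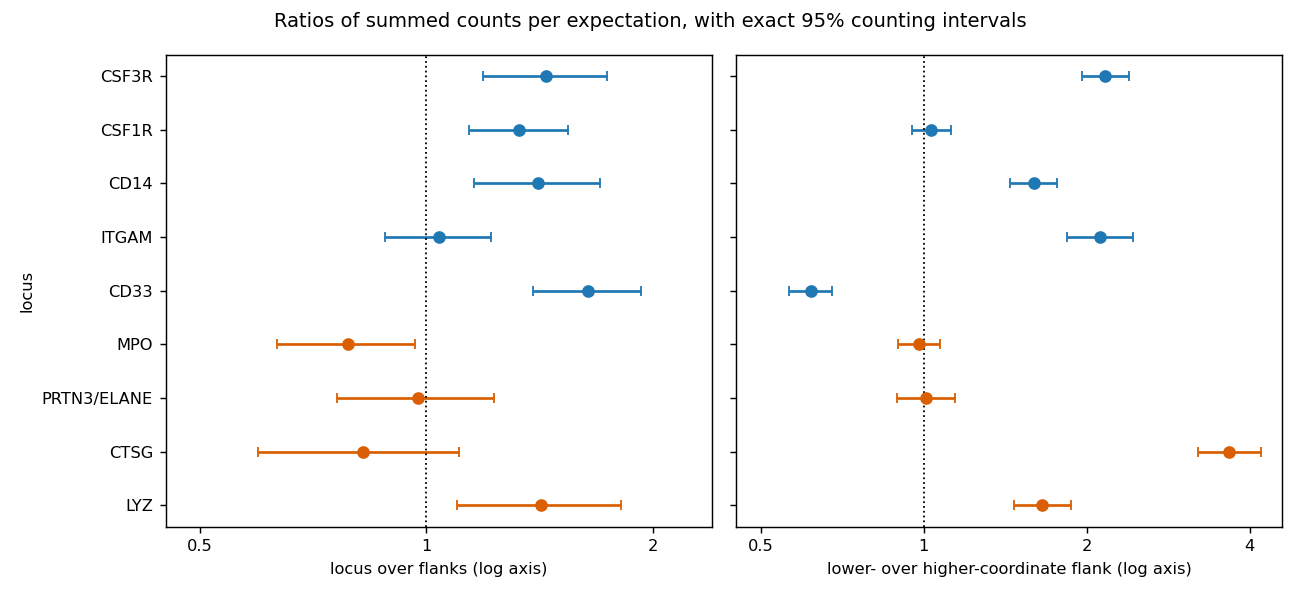
Ratio of summed counts per unit of expectation for each locus over its 1 Mb flanks (left) and for the lower-coordinate flank over the higher-coordinate flank (right), on log axes; bars are exact 95% intervals for counting error, and 1 is dotted. CD33, CSF3R, LYZ, CD14 and CSF1R lie right of 1 in the left plot, and CTSG has the largest difference between its sides, 3.67-fold.

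A mean over both flanks hides that several loci sit where the level changes along the chromosome. Comparing the side of lower with the side of higher coordinates, which was done after the values were seen, 1 side was higher in at least 21 cells at 6 of the 9 loci, against 41.9% of single bins. CTSG was the most uneven. Its lower-coordinate side, towards CMA1 and SDR39U1, averaged 1.96 ± 0.961, and the other side, towards the granzyme genes GZMH and GZMB, 0.487 ± 0.215. The former was higher in 25 of 26 cells and by 3.67 times in summed counts (3.22 to 4.19), a step larger than at 99.7% of bins. CTSG itself exceeded its high side in 4 of 26 cells and its low side in 16, and the next bin had a mean level of 0.938.

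CSF3R lay at a like edge, with 1.79 ± 0.664 on the side of MRPS15 and OSCP1 and 0.919 ± 0.263 on the side of GRIK3, a glutamate receptor gene. The first was higher in 23 cells and by 2.17 times in summed counts (1.96 to 2.39). CSF3R, at 1.69, was higher than the low side in 17 cells and than the high side in 10. ITGAM divided its surroundings too, with 2.27 ± 1.09 before it and 1.12 ± 1.61 after it, the former higher in 23 cells. Of the 8 bins after it, 2 rest on 1 count each, with mean levels of 2.59 ± 13.2 and 0.681 ± 3.47. Over the 5 bins there with at least 0.5 times the median expectation the level was 1.05 ± 0.471, and the side before it was still higher in 23 cells. LYZ had 1.29 ± 0.375 on the side of CPSF6 and 0.714 ± 0.301 beyond YEATS4, with the first higher in 24 cells. CD14 had 1.62 ± 0.416 before it and 0.985 ± 0.410 after it, with the first higher in 23 cells. In the 5 bins after the CD14 bin mean levels were between 0.395 and 0.716.

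CD33 faced the other way, with 1.17 ± 0.505 on the side of lower coordinates and 2.11 ± 0.810 on the other, the latter higher in 24 cells. It was part of a high block: the bins next to it had mean levels of 2.61 and 2.73, and those 200 and 300 kb further on 3.53 and 3.60. CD33 therefore ranked 3 of the 21 bins in its window. CSF1R ranked 4 and LYZ 4 of 21, while CSF3R ranked 9, MPO 13 and CTSG 8, and no locus held the highest bin of its window. MPO and CSF1R had even surroundings: sides differed by 0.982 and 1.03 times, with intervals that included 1. The sides of PRTN3 with ELANE, of 7 and 10 used bins, were at a ratio of 1.01 (0.894 to 1.14). A bin 800 kb before them, at the chromosome end, had a mean level of 7.15 ± 25.4 from 2 counts, so their mean flank of 1.93 ± 1.54 is less secure than the ratio of summed counts.

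**Figure D3:**
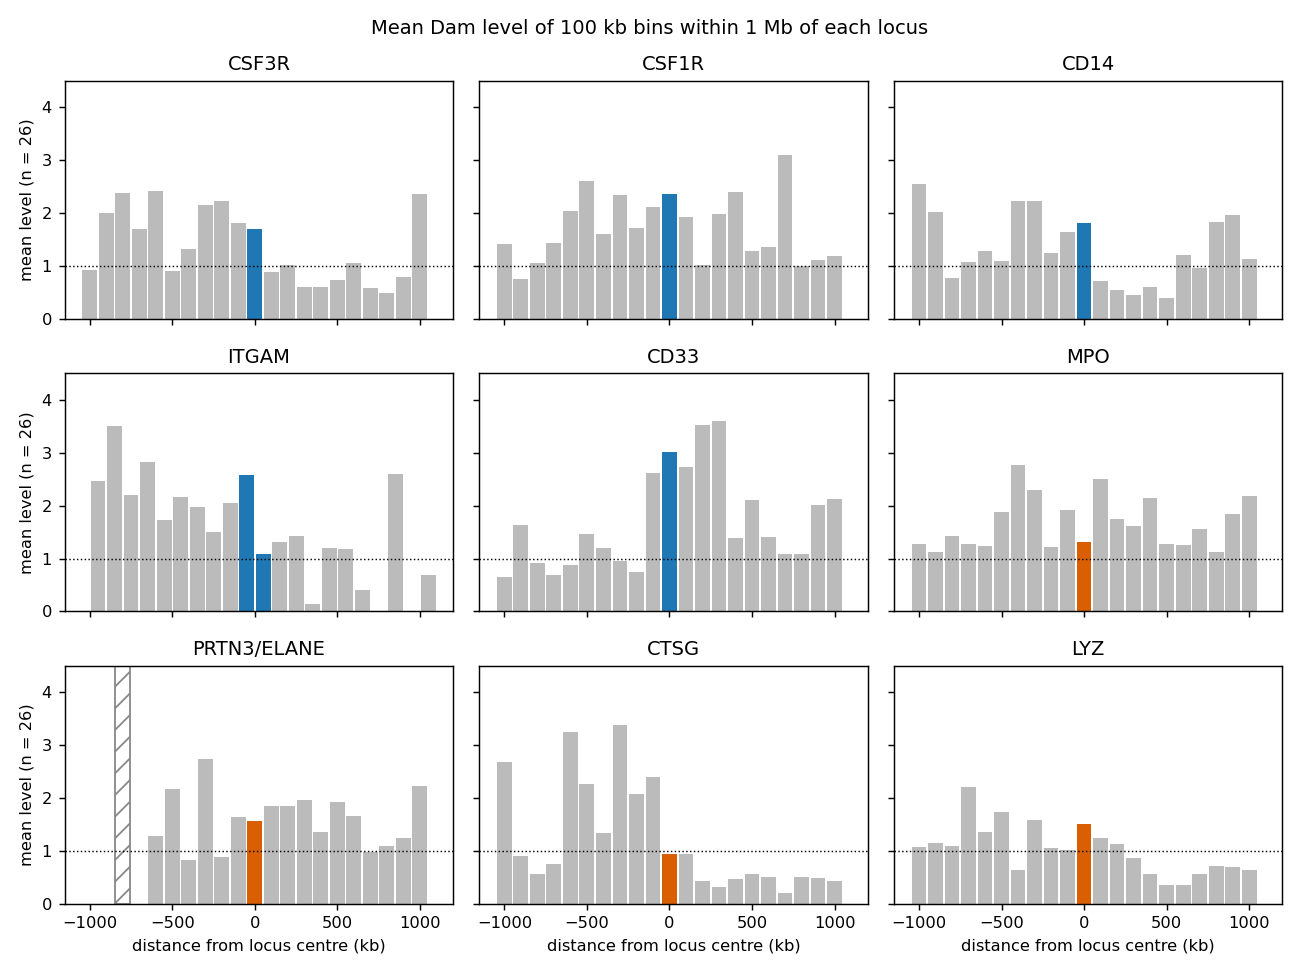
Mean level over 26 cells of each 100 kb bin within 1 Mb of the 9 loci, by distance from the locus centre in kb; coloured bars are the locus, grey bars its flanks, gaps are bins without a usable value, and the hatched bar beside PRTN3/ELANE is cut off at the axis limit (7.15, from 2 counts). Levels fall from left to right across CTSG, CSF3R, ITGAM and LYZ, rise towards CD33, and stay even around MPO.

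Cells differed in how many of the 9 loci were marked. The number at a level of 1 or more ran from 2 in cells 7 and 22 to 9 in cell 11, with a median of 6.5. Of all used bins, 30.8% to 40.4% per cell were at 1 or more. This share was 37.5% in cell 7, 32.4% in cell 22 and 36.1% in cell 11. Cell 11 also had all 9 loci above their flanks, with a mean over the loci of 3.41. Cell 22, with 21105 counts in all, had 6 loci at 0. Cell 23, with 21657 counts, had 5 loci at 0, and cell 21, with the fewest counts (20182), had 2. Cell 11 had 37444 counts, and the deepest, cell 1 at 178941 counts, had 7 loci at 1 or more. The part of depth in these numbers was not tested. Averaged over the 9 loci, the level was 1.79 ± 0.588 and that of their flanks 1.50 ± 0.279, with the loci higher in 18 of 26 cells.

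Spread between cells beyond counting noise was measured by a chi-square for unequal counts, per degree of freedom, where counting noise alone gives about 1. CSF1R reached 4.22, higher than 98.6% of used bins, whose median was 1.58. That value rests on cells of low coverage: without the 6 of lowest coverage it was 1.51, higher than 49.6% of bins. PRTN3 with ELANE followed at 2.45 and MPO at 2.28, and the other loci lay between 1.46 and 1.81. Without the same 6 cells MPO was the highest of the 9 loci, at 2.74 (higher than 94.8% of bins), and PRTN3 with ELANE was at 2.13. Bins were ranked whatever their number of counts. Over all 26 cells MPO held 94 counts and CSF1R 190, where the median bin held 47. The part of the number of counts in these rankings was not tested. Loci did not move together in a clear way. Over the 36 pairs, Spearman correlations across the 26 cells ran from -0.42 to 0.40 with a median of 0.098, on values that share each cell's depth and hold few counts.

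To place the loci among others, lists of 27 further myeloid loci, 12 liver loci and 12 housekeeping loci were measured in the same way. Their positions are from textbook knowledge. The 9 loci had a median mean level of 1.69, the further myeloid loci 1.88, the liver loci 0.893 and the housekeeping loci 2.21, where the median of all used bins was 0.793. The median ratio of summed counts to flanks was 1.33, 1.19, 1.08 and 1.75 in the same order, against 0.908 for all bins. Lists were not tested against each other.

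Among the further myeloid loci, 9 of 27 were called above and 0 below, against 6.09% and 31.4% of single bins (10.4% and 36.9% of pairs). By function, they were the antimicrobial peptide gene CAMP at 2.17 (22 cells), the gelatinase MMP9 at 2.34 (21), the cystatin CST7 (23) and CYBB, the catalytic subunit of the phagocyte oxidase, at 2.23 (21). The others were the adaptor chains FCER1G at 3.31 (24) and TYROBP at 1.96 (22), the Fc receptor FCGR2A at 4.35 (21), the lysosomal protein CD68 at 2.13 (22) and the receptor kinase FLT3 at 1.50 (21, over 2 bins). FCGR2A rests on a bin with 0.433 times the expectation of the median bin. MMP9, CST7, CYBB and FLT3 were also higher than their flanks in at least 21 cells, CYBB by 2.54 times in summed counts (2.11 to 3.06). FLT3 was so by 1.19 times only, with an interval from 0.999 to 1.41. Lower than their flanks in 21 cells each were the S100A8 and S100A9 locus, at 0.896, and CD163, a scavenger receptor of macrophages, at 1.12. Thus 4 of 27 loci were called higher and 2 lower, where 2.80% and 16.6% of single bins were (5.44% and 16.1% of pairs). The 2 lower loci were a smaller share than among all bins. MMP8 had the lowest mean level of this list, 0.608. EPX lies in the flanks of MPO and FPR1 in those of CD33, so these 2 are not separate from the comparisons above.

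Housekeeping loci were called above in 6 of 12 cases and below in 0, against 6.09% and 31.4% of single bins (10.4% and 36.9% of pairs). Among the 6 above were ACTB at 3.52, GAPDH at 2.65, EEF1A1 at 3.02, B2M at 3.50 and ENO1 at 3.77. EEF1A1, B2M, LDHA and ENO1 were higher than their flanks in at least 21 cells, and for 12 of 12 the interval of summed counts lay above 1. Among single bins 2.80% were called higher and 19.6% had such an interval (5.44% and 24.0% of pairs). HPRT1 was lowest at 1.39. Of the liver loci 0 of 12 were called above and 2 below, ALB (albumin) at 0.299 and APOB (apolipoprotein B) at 0.568, each with 3 cells at 1 or more. Among all single bins 31.4% were called below, a larger share than these 2 of 12. ALB and CYP3A4 were lower than their flanks in at least 21 cells, 2 of 12 loci, near the 16.6% of single bins called so. The highest liver locus, G6PC at 2.34, lay in flanks of 2.25. CTSG, at 0.951, was near the median of the liver loci, and CD33, at 3.02, near EEF1A1.

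**Figure D4:**
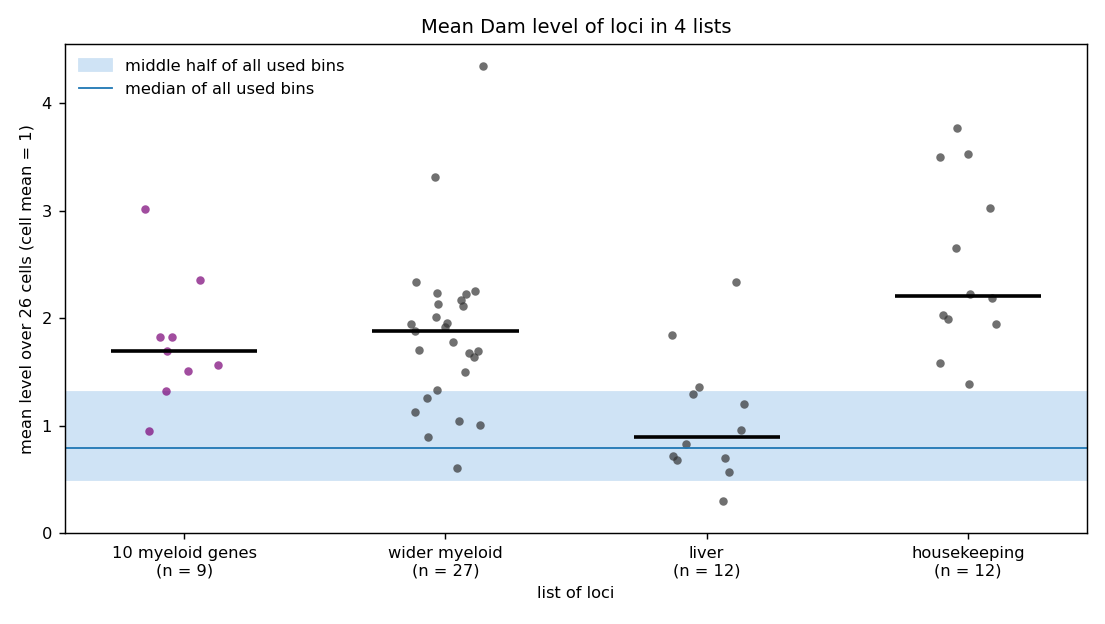
Mean level over 26 cells of each locus in the 4 lists (points; n is the number of loci) with the list's median (bar); the shaded band spans the quartiles of all used bins, 0.499 to 1.31, and the line is their median, 0.793. Of the 9 loci of the 10 myeloid genes, CTSG at 0.951 lies inside the band and the other 8 lie above its upper edge.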

How the data were processed

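The table holds ratios of observed over expected signal per 100 kb bin and cell, as the authors deposited it. Per the submitters' processing notes, trimming and alignment used cutadapt and Bowtie2 2.1.0, with build hg19. The way the expectation was built is not given in the sources. Of 30376 bins, 3792 had no value and 253 were 0 in all cells, which left 26331. Cell columns were matched to samples by number. Within a bin, ratios were whole multiples of a step, so counts were recovered (tolerance 0.001). They are known up to a common factor per bin. Recovery and intervals were tried on simulated counts with counting noise alone, each bin at its chromosome's level except bins changed 3-fold. Counts were recovered in 99.98% of bins. The interval excluded 1 for 100 of 100 raised, 99 of 100 lowered and 4.81% of unchanged bins. The simulation held no further spread between cells and no steps along a chromosome, so it cannot show how the intervals behave in these data.

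Flanks were the used bins within 1 Mb on either side (at least 10). Count ratios have exact conditional (Clopper-Pearson) intervals and levels exact Poisson ones. The members, windows (62 of 62 genes matched RefSeq by symbol and chromosome) and lists were chosen with earlier results of these data known. Named genes are the 10 members and each list's called, highest and lowest loci, except 1 called locus that is not reported here. Sides, roles, the spread without low-coverage cells, shares of bins called under alternatives and leaving out bins of low expectation from flanks were added after the values were seen. Alternatives covered flank length, flank summary, capping, thinning, cells and bins. Cells are of 1 clone and are not replicate cultures. No hg19 sequence was used. Intervals came from scipy 1.17.1 and figures from matplotlib 3.10.9, under Python 3.11.15 (tables: pandas 2.3.3; arrays: numpy 2.4.6).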

Additional observations from a re-analysis of the deposited data

How the results depend on the processing

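CD33 alone was called above the cell average, 1 of 9 loci. The number above was 2 relative to the chromosome mean (CSF1R joined; 5.59% of single bins were above) and 4 without the 6 cells of lowest coverage (CSF3R, CSF1R and ITGAM joined; 9.51% of bins). It was 6 with marked at 0.5 or more (18.2% of bins) and 0 with marked at 2 or more (0.566% of bins), where 2 were below (PRTN3 with ELANE, and CTSG; 73.5% of bins). The number higher than the flanks was 0 with flanks of 2 Mb (3.51% of bins) and 0 with every cell thinned to 20000 counts (1.00% of bins). Against the rest of the chromosome it was 2 (5.59% of bins). That is the same comparison as the level relative to the chromosome mean, with the same number of cells at each of the 9 loci. It is therefore not a separate result. With the lower-coordinate flank alone 1 was lower (CTSG; 16.6% of bins), and with the higher-coordinate flank alone the 1 higher locus was ITGAM in place of CD33 (3.45% of bins). Shares in this paragraph are of single bins. Those of pairs, the comparison for ITGAM, were not computed under these alternatives. Pairs were called more often in the main setting, 10.4% against 6.09% above and 5.44% against 2.80% higher. With the interval of summed counts 2 were below 1 with flanks of 0.5 Mb (MPO and CTSG; 23.0% of bins). The cause was not tested. In the other alternatives run, these counts stayed within 1.5 times. No mean level or difference of a single locus moved by 1 SD between cells, in 81 and 117 recomputed values. For differences that SD was larger than the difference itself at each of the 9 loci, so even a change of sign could count as unmoved. This rule therefore says little about how stable the differences are. Of 63 recomputed ratios of summed counts 4 left their interval, with flanks of 0.5 Mb or 2 Mb. Receptors stayed above effectors on average in 6 of 6 alternatives, by 0.588 to 0.914. Loci with 1 side higher numbered 5 or 6 in 7 alternatives. Depth limits values in single cells: loci of 1 bin held 45 to 190 counts over all 26 cells together. No paired analysis was possible because all cells belong to 1 group, so no groups share replicate numbers; differences within a cell are those given above.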
